A study of Danio rerio with 24 samples.

Results

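Sorted GFP+ cells of zebrafish larvae were compared at 5 h and 3 h after the hair cells of the lateral line had been killed with neomycin. The comparison rests on 6 libraries of the 24 in the series: 3 of GFP+ cells at 3 h and 3 of GFP+ cells at 5 h, chosen by their labels for time, drug and GFP status. All larvae, the controls included, carried the transgene Tg(sqET20) and were 5 days post fertilization. Both groups had spent 30 min in 300 uM neomycin and were then returned to medium for 3 h or 5 h, and both carry the same experiment date. GFP- cells from larvae treated and timed in the same way (3 libraries at each time) served as the other sorted population. GFP+ cells 1 h after mock treatment and 1 h after neomycin (3 libraries each, of another experiment date) are given beside them as levels only. Each library came from about 200 pooled larvae and about 30000 sorted cells. The labels do not say how the 3 replicates of a group were separated, so p-values measure the spread between these samples. No mock-treated group was taken at 3 h or 5 h, so recovery from neomycin cannot be told apart from anything else that changed in the larvae over those hours.

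Fish sense water movement with the lateral line, whose organs, the neuromasts, hold mechanosensory hair cells among supporting cells inside a ring of mantle cells. Neomycin enters hair cells and kills them, and in fish the supporting cells then give rise to new ones. Notch signalling restrains how many supporting cells take the hair cell fate and Atoh1 drives that fate, while Fgf and Wnt signals act on the proliferation and patterning of the organ. Tg(sqET20) is an enhancer trap line, so its GFP follows a local enhancer and is known mainly from mantle and supporting cells. Sorting therefore takes supporting cells together with any other cell type in which the enhancer is active.

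Marker gene sums of the 6 libraries were set beside that description. The lists were chosen with earlier results of these data known, so a GFP+ excess is no independent support for it. FPKM (fragments scaled to transcript length and sequencing depth) summed over 37 matched supporting and mantle cell markers lay between 5522.0 and 8012.1 in the 6 GFP+ libraries, and between 583.1 and 724.3 in the 6 GFP- libraries of the same times. For 30 differentiated hair cell markers the sums were 1918.8 to 3418.0 in GFP+ and 230.9 to 321.0 in GFP- cells. Of the GFP+ sum, pvalb9, s100s and s100t made up 22.64%, 20.35% and 19.43%. Not every member was higher in GFP+ cells: ctbp2a had means of 28.7 and 36.4 FPKM at 3 h and 5 h, against 73.5 and 67.3 in GFP- cells. For 17 hair cell fate genes the sums were 458.8 to 579.9 in GFP+ and 566.5 to 634.8 in GFP- cells. Skin and connective tissue genes were far more abundant in the GFP+ libraries. The basal epidermis markers summed to between 8936.2 and 11976.9, those of superficial epidermis to between 19646.0 and 28316.7, and those of vessel, cartilage and fibroblast to between 6833.9 and 9791.9, led by col1a1a, a chain of type I collagen. The keratin gene krt4 is on both skin lists and made up 48.07% and 22.08% of their GFP+ sums, so these are not separate measures. Which cell types the GFP+ libraries hold was not tested. They may be a mixture, and in bulk samples fewer cells of a type and less RNA per cell cannot be told apart.

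Depth differed between the groups. Read from the low values, relative depth was 0.727, 0.835 and 0.779 in the 3 h libraries and 1.102, 0.946 and 1.028 in the 5 h libraries, so every 3 h library was shallower than every 5 h library. The share of each GFP+ library that GFP- cells could supply, estimated from 111 blood, neuron and eye markers, was 6.621%, 4.77% and 4.432% at 3 h and 6.255%, 4.237% and 3.047% at 5 h. The part of depth in the results was not tested.

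At 5 h, 261 of 17722 tested genes were higher than at 3 h in GFP+ cells and 186 were lower (limma, adjusted p under 0.05), which is 1.47% and 1.05% of the genes tested, or 2.52% in either direction. Most changes were small: the median absolute log2 change of the 447 was 0.61, and 42 of them reached 1, 17 upwards and 25 downwards. Changes are given on the log2(FPKM + 1) scale, which understates those of genes with low values. The groups did not overlap in 438 of the 447, against 20.9% of all tested genes in either direction (10.8% higher and 10.1% lower). A small p in these same libraries favours such genes, so the 438 are no independent support for the calls. The median change of all tested genes was -0.01 on the log2 scale. At an unadjusted p under 0.05, limma passed 3016 genes.

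**Figure D1:**
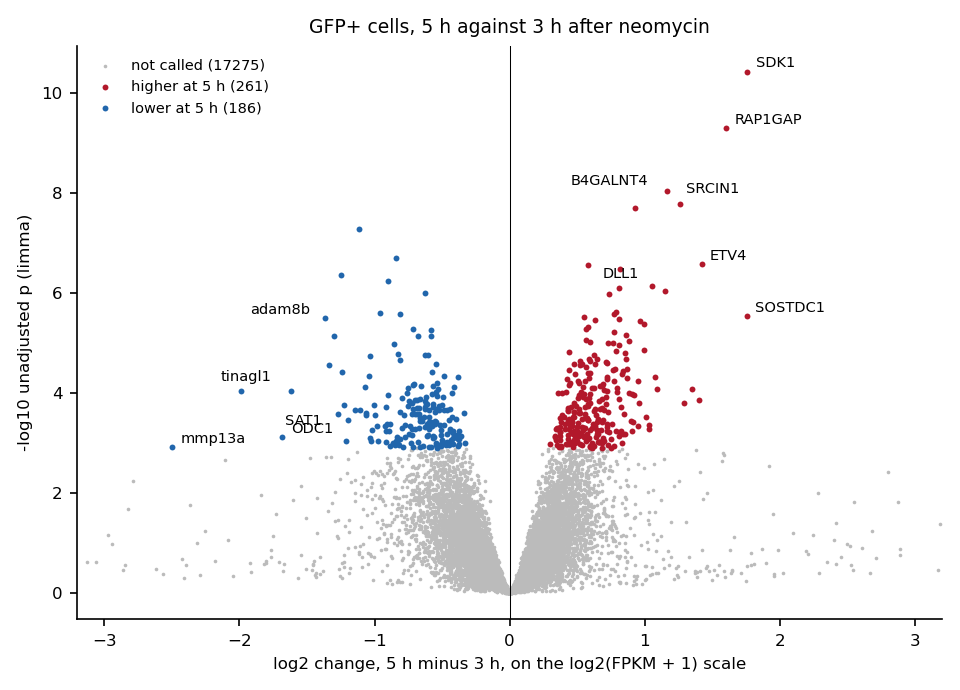
Change between 3 h and 5 h in GFP+ cells (x axis, log2 scale) against the unadjusted limma p (y axis, -log10) for each tested gene, with the 261 genes called higher in red, the 186 called lower in blue and the rest in grey. The smallest p-values belong to genes that rose; 19 genes beyond 3.2 on the x axis are left out, 1 of them called.

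The count differed between models. The spread was shared over all 24 libraries, and GFP- libraries varied less than GFP+ libraries (median residual SD 0.154 against 0.188 on the log2 scale at 3 h and 5 h). Over all 8 groups the median was 0.201, above that of GFP+ cells at 3 h and 5 h. By root mean square the order was the other way, 0.382 over all 8 groups and 0.412 in those GFP+ cells. With the spread weighted by population 157 of the 447 genes still passed, 101 higher and 56 lower. With the 12 libraries of 3 h and 5 h alone 360 genes passed, 260 of them among the 447, with the 12 GFP+ libraries alone 12, and with the 6 libraries alone 6. One 3 h library, replicate 1, weighed most on the count. It was the highest of the 6 in 120 of the 186 genes that fell. Among all 17722 tested genes it was the highest in 3553. These shares are not alike, since in the genes that fell the highest library was always one of 3 h. Replicates 2 and 3 of 3 h were the highest in 13 and 53 of the 186. Replicate 1 was also the lowest of the 6 in 125 of the 261 genes that rose, against 41 and 95 for replicates 2 and 3. When replicate 1 of 3 h was left out 98 genes passed, 67 higher and 31 lower. Without replicate 3 of 3 h 134 genes passed, and without replicate 2 of 5 h 234.

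The smallest p-values among the rises belonged to SDK1, RAP1GAP, B4GALNT4 and SRCIN1. SDK1 (ENSDARG00000062854), a cell adhesion protein of the immunoglobulin superfamily, had 1.13, 1.08 and 0.814 FPKM at 3 h and 6.06, 6.13 and 5.22 at 5 h. RAP1GAP (ENSDARG00000056554), which switches off the small GTPase Rap1, had 3.97, 4.11 and 5.70 FPKM at 3 h and 16.3, 14.8 and 16.5 at 5 h. SRCIN1, an inhibitor of Src kinase signalling, had 3.35, 4.84 and 3.55 FPKM at 3 h and 9.75, 11.2 and 11.11 at 5 h. In each of these genes all 5 h libraries lay above all 3 h libraries with a wide gap. The log2 changes were 1.76 ± 0.13 for SDK1 (SE; adjusted p = 6.74e-07 by limma), 1.605 ± 0.14 for RAP1GAP (adjusted p = 4.49e-06) and 1.26 ± 0.13 for SRCIN1 (adjusted p = 7.08e-05). All 3 also passed with the GFP+ libraries alone and without replicate 1 of 3 h. B4GALNT4, a glycosyltransferase, rose from a mean of 1.87 ± 0.203 FPKM to 5.41 ± 0.258 (SD, n = 3 libraries each), a log2 change of 1.16, and passed under both of those settings as well.

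The Fgf target ETV4 (ENSDARG00000018303), an Ets family transcription factor, was also higher at 5 h. It had 40.2, 46.3 and 34.1 FPKM at 3 h and 106, 110 and 109 at 5 h. The 5 h libraries agreed closely and lay far above those of 3 h. The log2 change was 1.42 ± 0.18 (SE; adjusted p = 0.000552, limma), and the call held with the GFP+ libraries alone (adjusted p = 0.00461). In the other groups ETV4 had a mean of 118 ± 23.5 FPKM after mock treatment and 60.1 ± 5.78 at 1 h after neomycin (SD, n = 3 libraries each), so the 5 h level was near that of mock. ETV4 was the only one of 22 tested members of the Fgf list to pass (4.545%, against 1.47% of all tested genes). Of the 22, 4 had 5 h above 3 h without overlap (18.18%, against 10.8% of all tested genes) and 0 below. The receptor gene FGFR1 had 26.7, 34.7 and 28.6 FPKM at 3 h and 40.2, 44.6 and 41.4 at 5 h, without overlap (log2 change 0.48, adjusted p = 0.175). Other receptor genes were lower: fgfr4 had 21.2, 19.6 and 23.9 FPKM and then 19.6, 18.9 and 13.5, with a slight overlap (log2 change -0.31, adjusted p = 0.146), and FGFR3 had a change of -0.20 (adjusted p = 0.463). The ligand gene FGF10 had 23.6, 20.9 and 19.5 FPKM and then 24.5, 28.9 and 28.03 (adjusted p = 0.343). The feedback inhibitor SPRY2, with 46.2, 52.0 and 39.4 FPKM and then 48.2, 53.05 and 50.2, overlapped between the times.

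Notch genes that passed were all higher at 5 h. Of 33 tested members of the list 3 rose (9.09%, against 1.47% of all tested genes) and 0 fell. Of the 33, 9 had 5 h above 3 h without overlap (27.27%, against 10.8%) while 2 had it below (6.06%, against 10.1%). The median change of the list was 0.10, against -0.01 for all tested genes. HEY1 (ENSDARG00000070538), a transcriptional repressor and Notch target, had 19.8, 25.7 and 21.3 FPKM at 3 h and 35.8, 43.7 and 40.4 at 5 h, a log2 change of 0.82 ± 0.18 (SE; adjusted p = 0.0197, limma). HEY2, its close relative, had 2.77, 2.25 and 2.75 FPKM and then 4.77, 5.28 and 5.83, a change of 0.81 (adjusted p = 0.0164). LFNG, a glycosyltransferase that modifies Notch receptors, had 54.6, 74.0 and 58.4 FPKM and then 86.9, 89.2 and 86.7, a change of 0.50 (adjusted p = 0.038). None of the groups of these 3 genes overlapped. With the spread weighted by population 1 of the 3 kept its call (HEY2), and without replicate 1 of 3 h 0 did.

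One further Notch pathway gene stood among the largest rises. DLL1 (ENSDARG00000020219), whose symbol is that of the mammalian Notch ligand Delta-like 1, had 7.74, 10.7 and 9.01 FPKM at 3 h and 18.5, 21.47 and 19.9 at 5 h. The log2 change was 1.05 ± 0.15 (SE; adjusted p = 0.001, limma), and the call held without replicate 1 of 3 h but not with the GFP+ libraries alone (adjusted p = 0.0762). Its level at 5 h was above the means of mock (7.93 FPKM) and of 1 h (6.20 FPKM). Another gene carrying the same symbol (ENSDARG00000010791) had 12.05, 16.4 and 13.9 FPKM and then 16.3, 17.8 and 18.9, overlapping between the times (log2 change 0.31, adjusted p = 0.395). Of the Notch receptors, NOTCH3 had 56.0, 57.4 and 54.1 FPKM and then 66.4, 76.0 and 66.1, without overlap (adjusted p = 0.233), and NOTCH1 lay between 9.86 and 14.4 FPKM in all 6 libraries. The target gene her4.1 had 4.68, 8.19 and 5.25 FPKM and then 8.14, 11.12 and 12.4, with a slight overlap (log2 change 0.73, adjusted p = 0.101).

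**Figure D2:**
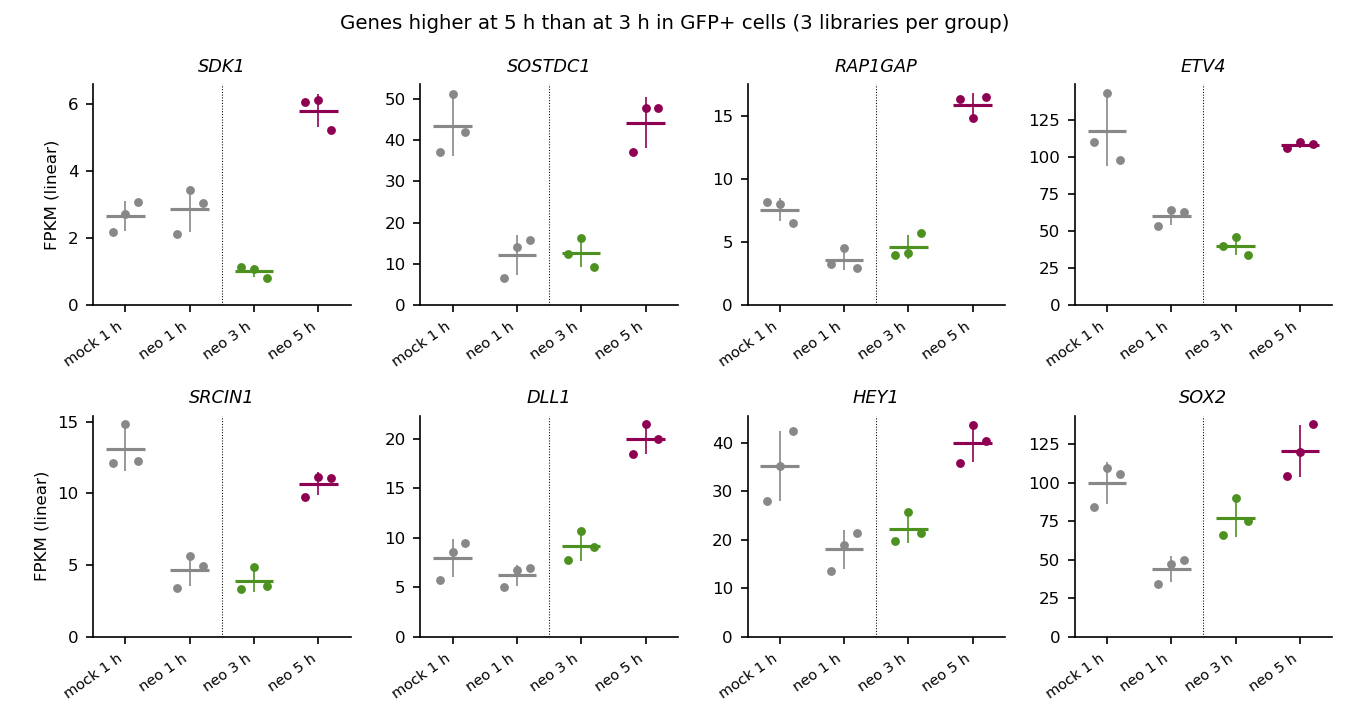
FPKM (y axis, linear, from 0) of 8 genes that were higher at 5 h, in the 3 libraries of each GFP+ group; horizontal bars are means, vertical bars SD, and the dotted line separates the experiment dates. ETV4, SOSTDC1, SRCIN1, HEY1 and SOX2 were lower at 1 h than in mock and at 5 h stood near their mock means, while SDK1, RAP1GAP and DLL1 stood above them.

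Rises were also seen among supporting cell genes. Of 34 tested supporting and mantle cell genes 3 rose (SOX2, negaly6 and LFNG, which is on the Notch list as well) and 0 fell. The 3 are 8.82% of the list, against 1.47% of all tested genes. Without overlap 10 had 5 h above 3 h (29.41%, against 10.8%) and 1 below (2.94%, against 10.1%), and the median change was 0.20. SOX2 (ENSDARG00000070913), a transcription factor of sensory progenitors and supporting cells, had 65.9, 90.03 and 75.3 FPKM at 3 h and 104, 120 and 138 at 5 h. Its log2 change was 0.65 ± 0.16 (SE; adjusted p = 0.0359, limma), and the mock mean was 99.7 FPKM. The supporting cell marker negaly6 had 132, 128 and 114 FPKM and then 204, 273 and 328, a change of 1.08 ± 0.21 (adjusted p = 0.0102), still below its mock mean of 570 FPKM. Of the 3 genes, negaly6 alone kept its call without replicate 1 of 3 h, and with the GFP+ libraries alone 0 did. Other markers on the list were higher without passing. The keratin gene krt15, a mantle cell marker, had 1277, 1303 and 1029 FPKM and then 1443, 1781 and 2402, without overlap (adjusted p = 0.187). TSPAN1, a tetraspanin, had 61.3, 79.4 and 69.3 FPKM and then 87.5, 121 and 119 (adjusted p = 0.151), and EYA4, a transcriptional coactivator of sensory placodes, had 91.7, 122 and 96.5 and then 130, 143 and 154 (adjusted p = 0.206).

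The other large rises were of varied function. SOSTDC1 (ENSDARG00000056021), a secreted antagonist of Bmp and Wnt signals, had 12.3, 16.1 and 9.29 FPKM at 3 h and 37.1, 47.7 and 47.8 at 5 h, a log2 change of 1.76 ± 0.27 (SE; adjusted p = 0.00231, limma). Its mean was 43.4 FPKM in mock and 12.13 at 1 h. Its call was lost with the GFP+ libraries alone (adjusted p = 0.0641, limma). A more abundant gene with the same symbol (ENSDARG00000068892) had 117, 150 and 184 FPKM and then 59.8, 147 and 53.1, overlapping between the times and with a change of the opposite sign (log2 change -0.92, adjusted p = 0.181). FZD8, a Wnt receptor, rose from 18.9, 24.7 and 19.5 FPKM to 33.6, 42.1 and 41.2 (log2 change 0.86, adjusted p = 0.00358). It was 1 of 2 genes to pass among 48 tested Wnt genes, and the other, the kinase GSK3B, fell by 0.44 on the log2 scale. Each is 2.083% of the list, near the 1.47% of all tested genes that rose and the 1.05% that fell. In that list 7 members lay above without overlap (14.58%, against 10.8% of all tested genes) and 7 below (14.58%, against 10.1%). Outside the list gsk3bb, named like GSK3B, was also called lower (log2 change -1.14, adjusted p = 0.0204, limma). CALR, a chaperone of the endoplasmic reticulum, rose by 0.79 and was the only gene to pass of 44 integrated stress and unfolded protein genes. That is 2.273% of the list, near the 1.47% of all tested genes. Both FZD8 and CALR kept their calls with the spread weighted by population and without replicate 1 of 3 h. Neither kept it with the GFP+ libraries alone (adjusted p = 0.0802 and 0.0905, limma).

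Among lower-abundance genes, prkag3a (a regulatory subunit of AMP-activated kinase), tmprss5 (a transmembrane serine protease) and chrna8 (a nicotinic acetylcholine receptor subunit) rose by 1.404, 1.35 and 1.29 on the log2 scale. All 3 lost their calls without replicate 1 of 3 h. The hemidesmosome collagen gene col17a1b rose from 44.8, 63.1 and 45.4 FPKM to 94.0, 108 and 112 (log2 change 1.03, adjusted p = 0.0318). That call held with the GFP+ libraries alone but not without replicate 1 of 3 h. Of 32 basal epidermis genes 2 rose (col17a1b and fgfbp1b, a secreted Fgf-binding protein) and 2 fell, JUP (the junction protein plakoglobin) among them, so the skin markers did not move one way. Each count is 6.25% of the list, against 1.47% and 1.05% of all tested genes.

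One small-RNA locus was called. MIR181B1 (ENSDARG00000083588), a microRNA gene, was listed at 0 in all 3 libraries of 3 h and at 71.0, 41.6 and 75.9 FPKM at 5 h. It was also listed at 0 in the GFP+ libraries of mock and 1 h. In GFP- cells it was listed at 0, 104 and 237 FPKM at 3 h and at 165, 101 and 189 at 5 h, so a value of 0 also occurs within a group. The libraries were made from polyadenylated RNA, which does not capture mature microRNAs.

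Among the genes that fell were 6 chaperone genes. Of 26 tested members of the cytosolic heat shock list 6 fell (23.08%, against 1.05% of all tested genes) and 0 rose. Of the 26, 13 had 5 h below 3 h without overlap (50%, against 10.1%) and 2 above (7.69%, against 10.8%), and the median change was -0.30. In GFP- cells 0 passed, 6 lay below (23.08%, against 10.6% of all tested genes) and 1 above, and the median was -0.13. HSPD1 (ENSDARG00000056160), the mitochondrial chaperonin Hsp60, had 137, 106 and 134 FPKM at 3 h and 71.2, 62.9 and 89.8 at 5 h, a log2 change of -0.75 ± 0.16 (SE; adjusted p = 0.0194, limma). HSPA9, the mitochondrial Hsp70, had 104, 91.0 and 106 FPKM and then 60.4, 61.7 and 74.9, a change of -0.61 (adjusted p = 0.00608). The cytosolic co-chaperone gene dnaja1 had 25.6, 21.8 and 24.3 FPKM and then 14.98, 13.0 and 11.7, a change of -0.81 (adjusted p = 0.0069). In these genes every 5 h library lay below every 3 h library, yet the 5 h levels remained above the mock means of 19.5 FPKM for HSPD1, 32.8 for HSPA9 and 8.13 for dnaja1. The inducible Hsp90 gene hsp90aa1.1 had 6.42, 3.91 and 4.204 FPKM and then 2.08, 1.49 and 1.68, a change of -1.07 (adjusted p = 0.0128). The 4 named genes kept their calls with the spread weighted by population, 2 of them (dnaja1 and HSPA9) without replicate 1 of 3 h, and 0 with the GFP+ libraries alone. Part of the list, HSPD1 and HSPA9 among it, works in mitochondria rather than in the cytosol.

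Of 73 tested ribosome biogenesis genes 5 fell (6.85%, against 1.05% of all tested genes) and 0 rose. Of the 73, 22 had 5 h below 3 h without overlap (30.14%, against 10.1%) and 2 above (2.74%, against 10.8%), and the median change was -0.33. The ribosomal RNA methyltransferase gene nop2 (ENSDARG00000043304) had 53.6, 41.6 and 43.1 FPKM at 3 h and 24.2, 27.3 and 31.6 at 5 h, a log2 change of -0.71 ± 0.14 (SE; adjusted p = 0.0126, limma). The RNA helicase gene ddx10 had 32.1, 27.7 and 26.4 FPKM and then 16.3, 19.1 and 21.4 (change -0.58), and ubtf, a transcription factor of RNA polymerase I, had 37.1, 34.3 and 33.9 and then 27.2, 27.6 and 24.6 (change -0.39). Neither pair of groups overlapped. With the spread weighted by population nop2 alone of the 5 kept its call, and without replicate 1 of 3 h 0 did. The list was lower in GFP- cells too, where its median was -0.16, 20 of the 73 genes lay below and 1 above without overlap (10.6% and 5.11% of all tested genes in GFP- cells), and 0 passed. Genes of the ribosome's own proteins gave no call: 0 of 64 cytosolic ribosomal protein genes passed in GFP+ cells. There 9 lay above without overlap (14.06%, against 10.8% of all tested genes) and 0 below, and the median was 0.15.

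Of 26 tested polyamine and arginine genes 3 fell (11.54%, against 1.05% of all tested genes) and 0 rose. ODC1 (ENSDARG00000007377), the rate-limiting enzyme of polyamine synthesis, had 239, 52.2 and 86.5 FPKM at 3 h and 20.6, 30.4 and 49.0 at 5 h, a log2 change of -1.68 ± 0.42 (SE; adjusted p = 0.038, limma). Replicate 1 of 3 h stood far above the others, and the 3 h replicate 2 and 5 h replicate 3 libraries were close to each other. SAT1 (ENSDARG00000095908), which acetylates spermidine and spermine for breakdown or export, had 2833, 1232 and 1538 FPKM and then 783, 558 and 1015, a change of -1.20 (adjusted p = 0.0263). Less abundant genes with the same symbol, ENSDARG00000035652 and ENSDARG00000032272, did not pass (log2 changes -0.53 and 0.17, adjusted p = 0.392 and 0.504, limma). MAT2A, which makes S-adenosylmethionine, had 172, 137 and 189 FPKM and then 74.7, 90.1 and 88.7, with a wide gap between the times (change -0.96, adjusted p = 0.00222). MAT2A kept its call without replicate 1 of 3 h and with the spread weighted by population, while ODC1 and SAT1 kept it under neither. With the GFP+ libraries alone 0 of the 3 kept it. At 1 h after neomycin the means were 386 FPKM for ODC1, 6906 for SAT1 and 228 for MAT2A, and in mock they were 10.7, 617 and 54.3.

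The largest falls included genes of proteases and of the extracellular matrix. The collagenase gene mmp13a (ENSDARG00000012395), which is on the leukocyte and the matrix lists, had 190, 29.5 and 49.1 FPKM at 3 h and 4.44, 9.29 and 27.9 at 5 h. Its log2 change was -2.50 ± 0.66 (SE; adjusted p = 0.0489, limma); 29.5 and 27.9 FPKM nearly met, and without replicate 1 of 3 h the change was -1.74 (adjusted p = 0.248). The basement membrane gene tinagl1 had 99.0, 30.7 and 43.9 FPKM and then 7.81, 9.43 and 23.9 (change -1.99, adjusted p = 0.014). The metalloprotease gene adam8b had 15.099, 8.37 and 12.5 FPKM and then 3.76, 4.73 and 3.40 (change -1.36 ± 0.21, adjusted p = 0.00234). It was the only one of the 12 largest falls to keep its call without replicate 1 of 3 h, while 8 of the 12 largest rises kept theirs. With the GFP+ libraries alone 0 of the 12 falls and 6 of the 12 rises kept their calls. All 24 kept their direction.

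**Figure D3:**
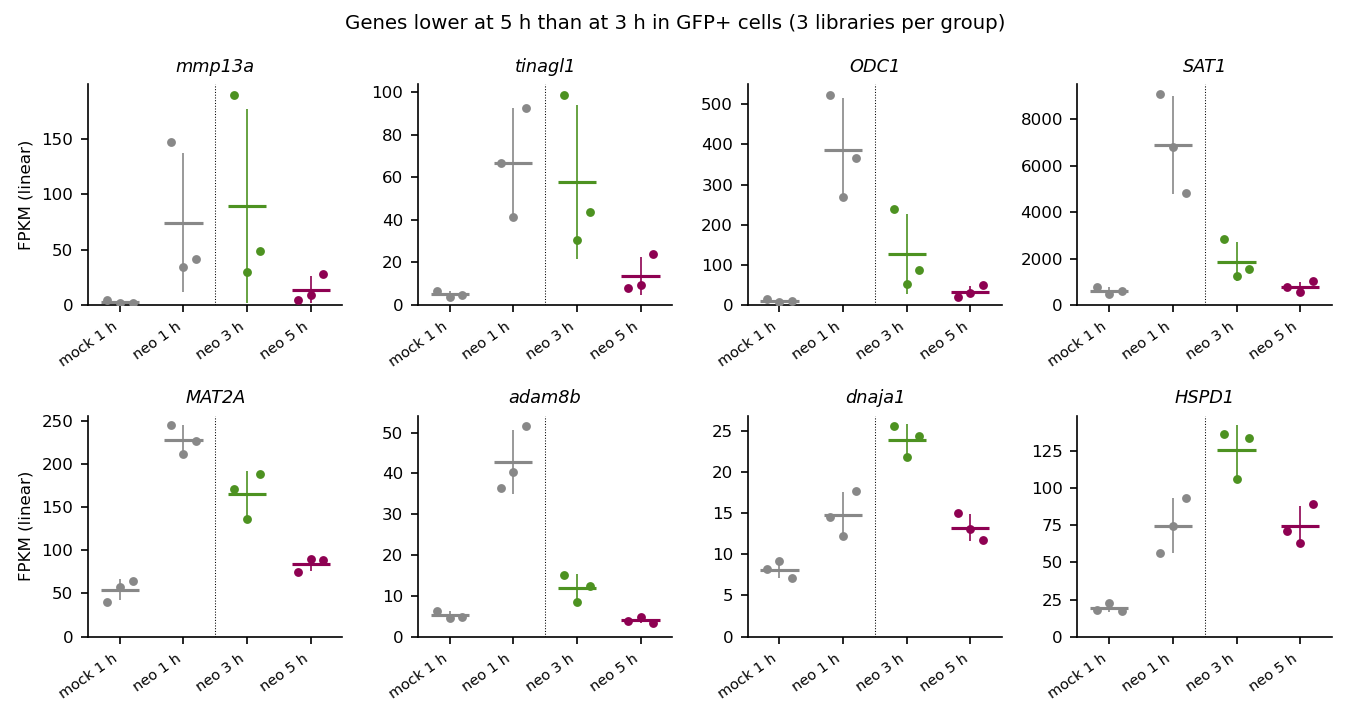
FPKM (y axis, linear, from 0) of 8 genes that were lower at 5 h, in the 3 libraries of each GFP+ group; horizontal bars are means, vertical bars SD, and the dotted line separates the experiment dates. The highest 3 h point of mmp13a, tinagl1, ODC1 and SAT1 is replicate 1, at 190, 99.0, 239 and 2833 FPKM.

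The remaining large falls were BGN, a matrix proteoglycan, cbx7a, a Polycomb protein gene, SLC16A9, a monocarboxylate transporter, gsk3bb, rps6kb1a, an S6 kinase gene, and AQP1, a water channel found in erythrocytes and vessels. They fell by 1.24, 1.23, 1.21, 1.14, 1.11 and 1.06 on the log2 scale. Of these, cbx7a had 73.8, 33.7 and 45.6 FPKM at 3 h, 19.3, 18.7 and 22.6 at 5 h and a mean of 383 at 1 h. Another gene with the symbol BGN (ENSDARG00000017884) did not pass (log2 change -0.31, adjusted p = 0.481, limma). Among smaller falls, cycsb, a cytochrome c, had 158, 135 and 150 FPKM and then 87.7, 96.5 and 112 (change -0.58, adjusted p = 0.00309), and MSN, the actin-membrane linker moesin, fell by 0.56. The cycsb call held without replicate 1 of 3 h and with the spread weighted by population. It was lost with the GFP+ libraries alone (adjusted p = 0.0846, limma).

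AP-1 and other immediate early genes, transcription factors induced by wounding and stress, did not pass. Of 51 tested, 0 passed, against 2.52% of all tested genes in either direction, and the median was -0.15. An unadjusted limma p under 0.05 was reached by 12 of the 51, against 3016 of all 17722 tested genes. Without overlap 5 lay below (9.8%, against 10.1% of all tested genes) and 1 above (1.96%, against 10.8%). FOSL1 had 84.7, 10.6 and 19.3 FPKM at 3 h and 2.401, 6.28 and 9.15 at 5 h, without overlap (log2 change -2.11 ± 0.59, adjusted p = 0.0655). ATF3 had 28.6, 6.42 and 9.49 FPKM and then 2.98, 4.88 and 5.36 (change -1.32, adjusted p = 0.171). The 3 h replicate 1 library was again the highest of the 6 for both. In the Jak/Stat3 list 0 of 28 passed, near the 2.52% of all tested genes. Without overlap 4 of the 28 lay below (14.29%, against 10.1%) and 1 above (3.57%, against 10.8%). JAK1 had 47.0, 37.3 and 35.1 FPKM and then 29.0, 29.3 and 31.5, without overlap (log2 change -0.39, adjusted p = 0.164, limma). STAT3 overlapped, with 68.8, 54.3 and 73.3 FPKM and then 51.0, 87.9 and 71.8.

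Hair cell and cell cycle genes did not pass either. For hair cell fate genes 0 of 17 passed and for differentiated hair cell genes 0 of 27, with medians of 0.09 and 0.09. Of all tested genes 2.52% passed in either direction, so 0 calls in so few genes is near that share. Without overlap 1 of the 17 lay above (5.88%) and 0 below. Of the 27, 2 lay above (7.41%) and 1 below (3.70%), against 10.8% and 10.1% of all tested genes. ATOH1, the transcription factor that drives hair cell fate, had 45.7, 60.1 and 46.3 FPKM at 3 h and 45.7, 51.3 and 58.4 at 5 h, a log2 change of 0.03 ± 0.20 (SE). POU4F3, needed for hair cell survival, had 5.87, 10.8 and 7.31 FPKM and then 10.5, 10.6 and 6.16. In the S phase list 0 of 59 passed, with 13 genes above (22.03%, against 10.8% of all tested genes) and 3 below without overlap and a median of 0.12. In GFP- cells 10 of the 59 lay above (16.95%, against 5.11%) and 2 below. In the mitosis list 0 of 59 passed, with 8 above (13.56%, against 10.8%), 2 below (3.39%, against 10.1%) and a median of 0.08. PCNA, the sliding clamp of DNA replication, had 145, 148 and 143 FPKM and then 168, 145 and 180. For the S phase list 12 of 59 members and for the mitosis list 6 of 59 had an unadjusted limma p under 0.05. Of all 17722 tested genes 3016 did.

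Some lists held many genes higher at 5 h by small amounts, none of these past the threshold. Of 39 proteasome genes 18 lay above and 1 below without overlap (46.15% above, against 10.8% of all tested genes), 0 passed, and the median was 0.19. PSMC1, a subunit of the regulatory particle, had 35.3, 31.2 and 34.8 FPKM at 3 h and 43.4, 42.3 and 46.1 at 5 h (log2 change 0.37, adjusted p = 0.0501). Of 60 oxidative phosphorylation genes 18 lay above (30%, against 10.8%) and 2 below (3.33%, against 10.1%), with a median of 0.14. The only gene of that list to pass, cycsb, was lower at 5 h (1.667% of the list, against 1.05% of all tested genes). Both the proteasome and the oxidative phosphorylation list were higher in GFP- cells, with medians of 0.19 and 0.16. There 10 of 39 and 16 of 60 lay above without overlap (25.64% and 26.67%, against 5.11% of all tested genes).

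**Figure D4:**
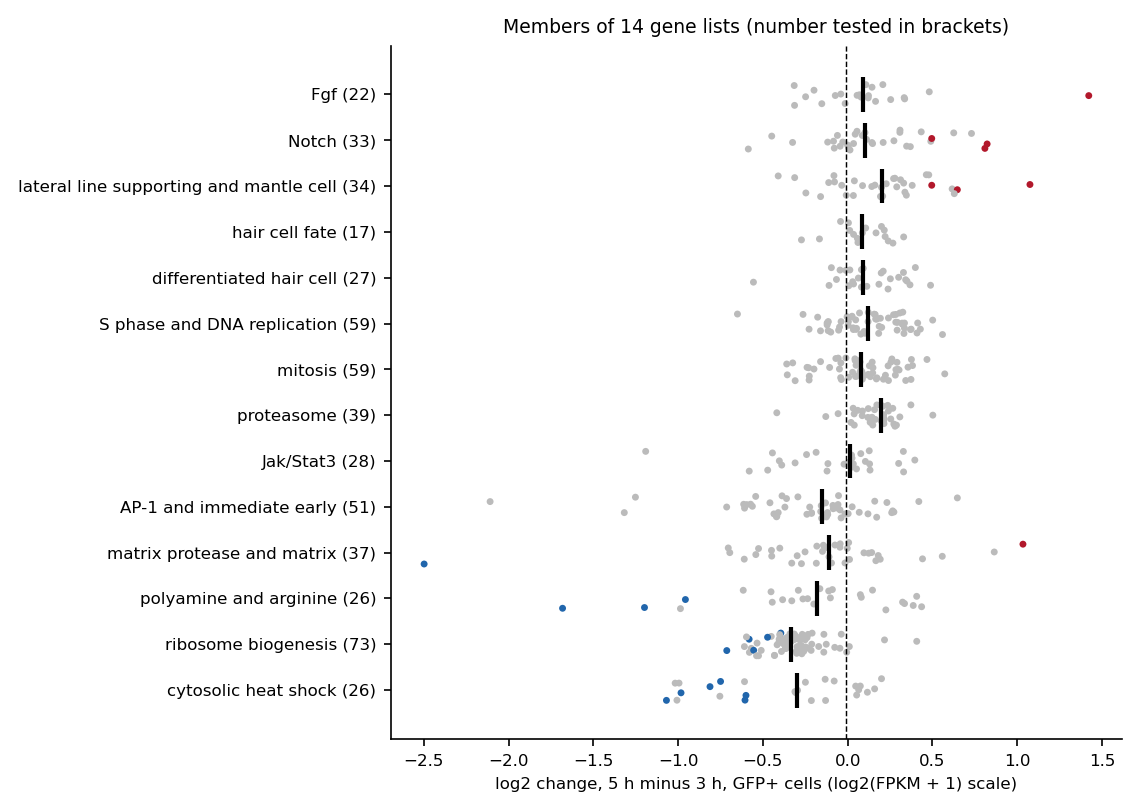
Change between 3 h and 5 h in GFP+ cells (x axis, log2 scale) of each tested member of 14 gene lists (rows), with called genes in red (higher) or blue (lower), the rest in grey, a black bar at each list's median and a dashed line at the median of all tested genes. The ribosome biogenesis and cytosolic heat shock medians, -0.33 and -0.30, lie farthest from the dashed line, and the supporting cell and proteasome medians, 0.20 and 0.19, farthest above it.

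Markers of other cell types were examined in the same way. Neuron (26 tested), retina and lens (26) and skeletal muscle (15) markers gave 0 calls, where 2.52% of all tested genes were called. Erythrocyte and leukocyte markers gave 1 each, AQP1 and mmp13a, both lower at 5 h (4.348% of 23 and 4.545% of 22 tested markers, against 1.05% of all tested genes). An unadjusted limma p under 0.05 was reached by 7 of the 22 leukocyte markers, against 3016 of all 17722 tested genes. The median change was -0.20 for erythrocyte markers, -0.33 for leukocyte markers and -0.31 for 18 ionocyte markers, of which 0 passed. The leukocyte and ionocyte medians lay near that of ribosome biogenesis. In GFP- cells the medians were -0.10, -0.03 and -0.01. The summed level of 27 erythrocyte markers was 623.0 to 1078.1 FPKM at 3 h and 411.6 to 834.7 at 5 h, against at least 22306.1 in GFP- cells, and 2 of the 27 were at 0 in all 6 libraries. For 49 leukocyte markers the sums were 1143.3 to 1829.3 and 1367.8 to 1849.9 FPKM, against 2996.1 to 4890.6 in GFP- cells, with 1 at 0. The ranges of the times overlapped for both lists, but hbae3, a globin gene, made up 67.64% of the erythrocyte sum and apoeb, an apolipoprotein gene, 79.66% of the leukocyte sum. The other markers weigh little in these sums, and their part in the falls was not tested. After subtraction of the estimated GFP- share 516 genes passed, 323 higher and 193 lower. That step takes off only a scaled GFP- profile, and its share was estimated in part from these same markers. It cannot remove cells richer in the GFP+ sort. Within the leukocyte list apoeb had a mean of 1246 FPKM in GFP+ and 216 in GFP- cells. The sum of that list was lower in GFP+ than in GFP- cells, so apoeb does not stand for the list.

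Between the same times in GFP- cells limma called 0 of 17722 genes (0.0%), with 967 at an unadjusted p under 0.05 and a smallest adjusted p of 0.27; with the GFP- libraries of these times alone it called 3. Of the 447 genes called in GFP+ cells 346 (77.4%) had the same sign in GFP- cells, against 63.6% of all tested genes. The median GFP- change was 0.09 for the genes that rose in GFP+ cells and -0.19 for those that fell. Their GFP+ medians were 0.60 and -0.63. A test of the difference between the populations called 4 genes (0.0226% of those tested): SDK1, RAP1GAP, SRCIN1 and B4GALNT4. For the other 443 genes a difference between the populations was not shown.

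**Figure D5:**
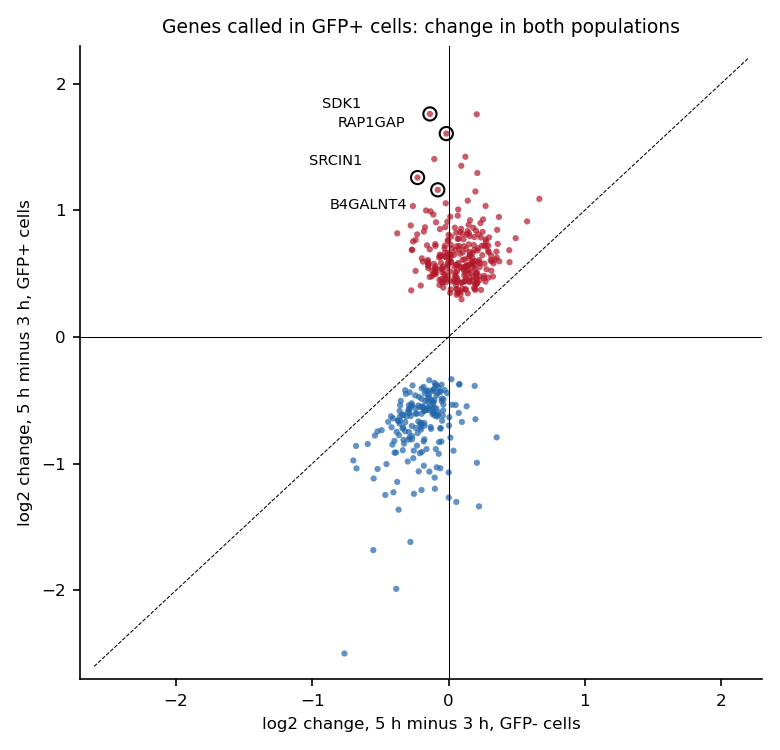
Change between 3 h and 5 h in GFP- cells (x axis) and in GFP+ cells (y axis), both on the log2 scale, for 446 of the 447 genes called in GFP+ cells (MIR181B1 lies beyond the axes); the dashed line marks equal changes. Circles mark the 4 genes whose changes differed between the populations, with log2 differences of 1.90, 1.62, 1.49 and 1.24.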

How the data were processed

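Libraries of polyadenylated RNA were made with a TruSeq kit, per the labels' protocols. The submitters' processing notes name CASAVA 1.8.2, TopHat 1.4.1, Cufflinks 1.3 and the build danRer7, without roles. The sources used here give neither the annotation release nor the strand setting. The authors deposited FPKM, 1 column per library; total counts are unknown, and depth was estimated relatively, from values below 0.15 FPKM.

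Where an Ensembl ID was repeated its first row was kept (31087 IDs, 112 rows dropped). Symbols came from a name table (20499 IDs); those in capitals are of mammalian orthologs, and 1275 are shared by several IDs, so paralogs and overlapping genes are uncertain. A gene was tested if 3 of the 6 libraries reached 1 FPKM. limma 3.58.1 in R 4.3.3 fitted log2(FPKM + 1) with 1 mean for each of 8 groups (24 libraries) and an intensity trend. Tests were two-sided with Benjamini-Hochberg adjustment over 17722 genes and a threshold of 0.05. The fit was run on simulated data in which each gene had the same spread in every library. That check cannot show how unequal spread between populations or a single library affects the counts. No replicate block was used, since the labels do not tie the replicate numbers to shared larvae or batches and not every same-numbered pair deviated together.

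Named genes are the 12 largest rises and 12 largest falls that passed without overlap between the times, with a higher mean of at least 5 FPKM and a symbol that is neither clone-like nor of a small RNA. Added to these are the 4 largest differences between the populations in each direction, up to 4 members of smallest p per list, and a set of 56 genes, of which 51 were matched. Of the 50 genes of that set that were tested 4 rose and 3 fell, against 1.47% and 1.05% of all tested genes. One of the largest falls is not reported here. Other genes, such as MIR181B1, were named after their values were seen. Members and the 42 lists (1882 of 2234 entries matched) were chosen with earlier results of these data known. Other settings were a pseudocount of 0.1, filters, scalings, models of the spread, a replicate block and each library left out. Weighting the spread by population and using the 3 h and 5 h libraries alone were added after seeing the data.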

Additional observations from a re-analysis of the deposited data

Results flagged for a closer look

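For 4 genes the change between 3 h and 5 h differed between GFP+ and GFP- cells (limma's test of the difference, adjusted p under 0.05), each with a larger rise in GFP+ cells. SDK1 differed by 1.90 ± 0.18 on the log2 scale (SE; adjusted p = 6.3e-05 by limma): in GFP- cells it had 3.13, 2.88 and 2.98 FPKM at 3 h and 2.36, 2.62 and 2.95 at 5 h, so its GFP+ level was below that of GFP- cells at 3 h and above it at 5 h. RAP1GAP differed by 1.62 (adjusted p = 0.000935), with GFP- means of 6.75 and 6.63 FPKM. SRCIN1 differed by 1.49 (adjusted p = 0.00152), with GFP- means of 4.94 and 4.07 FPKM, and B4GALNT4 by 1.24 (adjusted p = 0.00284), with GFP- means of 4.01 and 3.75 FPKM. Each rose in GFP+ cells without overlap between the times. For SDK1, RAP1GAP and B4GALNT4 a second ID carries the same symbol, and none of those 3 passed in GFP+ cells.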

How the results depend on the processing

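The 447 calls in GFP+ cells became 157 with the spread weighted by population, 360 with the libraries of 3 h and 5 h alone (260 of them shared), 12 with the GFP+ libraries alone and 6 with the 6 libraries alone. Fits on fewer libraries also have fewer residual degrees of freedom. When a log2 change above 1 was tested, 0 passed. The median-of-ratios and quantile scalings gave 492 and 418 and moved the median of all genes by less than 0.1. With one library left out the count ran from 98 to 579: 98 without replicate 1, 579 without replicate 2 and 134 without replicate 3 of 3 h, and 310, 234 and 324 without those of 5 h. Without the libraries numbered 1 it was 67. A replicate block was fitted on the libraries of each contrast alone. It joined same-numbered libraries within a population, not between populations. With it limma called 1 gene in GFP+ cells, 3 in GFP- cells and 0 for the difference (unadjusted p under 0.05 for 1329 genes). Without the block the same libraries gave 6, 3 and 4. Deviations of same-numbered libraries correlated by 0.033, 0.06 and 0.04 between the times in GFP+ cells, 0.065, 0.127 and 0.192 in GFP- cells, and, between the populations, 0.047, 0.12 and 0.131 at 3 h and -0.01, 0.087 and 0.105 at 5 h, so not every pair exceeded 0.1. Every library correlated best with its own number between the times in GFP- cells and between the populations at 3 h, but not in the other 2 sets, a hint from the data and not the design. GFP- cells also gave 3 calls with their own libraries alone, and 0 under every setting run other than that fit and the block.

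The 4 differences between populations became 7 with a filter of 5 FPKM, 0 for a log2 change above 1, 2 without the libraries numbered 1 (1 of the 4 and 1 other gene), and 10 after subtraction of the GFP- share; leaving out one library gave 4 to 10 (10 without replicate 2 of GFP+ 3 h, 9 without replicate 2 of GFP- 5 h). The settings run reversed the direction of no named gene's call, but many calls were lost. Of the named genes that passed, 45 lost their call with the GFP+ libraries alone and 6 kept it. With the 6 libraries alone 48 lost it and 3 kept it, and with the replicate block all 51 lost it. Why the counts moved was not tested. Depth is known only in relative terms, so no counting error can be given for genes of low FPKM.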

Other observations

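Of 31 tested retinoic acid and steroid genes 0 passed in GFP+ cells, while 7 lay below (22.58%, against 10.1% of all tested genes) and 0 above without overlap between 3 h and 5 h. In GFP- cells 9 lay below (29.03%, against 10.6% of all tested genes) and 1 above. The summed level of the list was 943.1 to 1043.8 FPKM at 3 h and 681.8 to 881.6 at 5 h, so the sums did not overlap. ALDH1A2, which makes retinoic acid, had 45.0, 35.7 and 79.7 FPKM and then 27.5, 41.9 and 28.7 (adjusted p = 0.149, limma). Of 32 sterol and fatty acid synthesis genes 2 rose, SC5D and insig1, each by 0.61 on the log2 scale, and 1 fell, the lipoprotein receptor gene LRP8, by 0.43, which is 6.25% and 3.125% of the list against 1.47% and 1.05% of all tested genes. HMOX1, a heme-degrading stress enzyme, had 19.9, 11.06 and 7.29 FPKM and then 4.33, 2.72 and 5.22 without overlap, and did not pass (adjusted p = 0.0608).

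The clock gene PER2 varied more within than between the times. It had 12.11, 3.12 and 29.6 FPKM at 3 h and 2.34, 23.9 and 3.26 at 5 h. Of 39 circadian clock genes 0 passed, against 2.52% of all tested genes.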
